A study of Mus musculus with 24 samples.

Results

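Gene expression in the mouse inner ear was compared between 20 and 11 months of age, the later of the 2 steps that the ageing experiment spans. The comparison took the 4 libraries of 20-month-old mice and the 4 of 11-month-old mice, 8 of the 24 libraries in all, and every gene of the deposited count table. Per the labels, each library is 1 of 4 mice of that age, and all 8 mice were untreated male C57BL6/J animals. The RNA came from all the soft tissue left after the bone of the inner ear was taken away. The sample titles say cochlea and the source field says inner ear, so hearing and balance organs, their nerve and whatever lined or clung to the bone may all be present. The table also holds 4 libraries of 3-month-old mice, which share the estimate of the spread and give each gene's earlier level. Library totals were 30599012 to 38451292 counts, and 15525 of the 18440 genes listed had counts enough to be tested.

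Sound is turned into nerve signals by hair cells, whose bundles of stereocilia open ion channels when they bend. Supporting cells hold the hair cells in place, the stria vascularis and the fibrocytes of the lateral wall keep the potassium-rich fluid around the bundles, and spiral ganglion neurons wrapped by Schwann cells carry the signal to the brain. With age the inner ear is known to lose hair cells, synapses and ganglion neurons and to gain macrophages and inflammatory gene expression. The C57BL6/J strain carries a variant of Cdh23, the gene of a tip link protein of the bundle, and is known for hearing loss that starts early in life. Hearing was not measured in the files used here.

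Values are given as CPM, a library's counts scaled to a common total with its TMM factor, in the order of replicates 1, 2, 3 and 4, and means carry the SD over the 4 mice of an age. Log2 fold changes are 20 over 11 months with their standard error, and a gene is said to have risen or fallen where its p-value from edgeR's quasi-likelihood test, two-sided and adjusted over all 15525 genes, was under 0.05. Where such a gene's adjusted p is printed with no second p-value, its call held in each of the 12 fits that left out 1 library of the 3 ages. CPM values do not correct for gene length, so levels are compared between ages and not between genes.

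The defining markers of the inner ear were present in all 8 libraries. Otof, which hair cells need to release transmitter, had 67.6, 32, 75.9 and 84.8 CPM at 20 months, against 91, 58.6, 72.1 and 60.8 CPM at 11 months. Coch, the cochlin of the fibrocytes, had 4482, 4799, 3218 and 5181 CPM at 20 months, against 5406, 3912, 3297 and 3682 CPM at 11 months. Prx, a scaffold protein of myelinating Schwann cells, had 713, 439, 590.1 and 557 CPM at 20 months, against 634, 622, 617 and 643 CPM at 11 months. None of these 3 genes was called between the ages, with adjusted p-values of 0.831, 0.661 and 0.455. Genes of other tissues were present as well. The score of a list, which is the mean log2(CPM + 1) of its genes, was 3.57, 3.34, 1.65 and 2.83 at 20 months, against 2.08, 1.57, 1.56 and 1.44 at 11 months for genes of mucosal epithelium. For skeletal muscle it was 2.27, 1.93, 2.15 and 1.86 at 20 months, against 1.66, 1.75, 1.64 and 1.64 at 11 months, and for bone and cartilage 3.72, 4.41, 3.46 and 4.13 at 20 months, against 3.47, 3.26, 3.37 and 3.31 at 11 months. All 4 muscle scores at 20 months lay above those at 11 months, as did 3 of the 4 bone scores and 3 of the 4 mucosal scores, replicate 3 being the exception in both.

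Some libraries stood apart. Replicate 3 of the 20-month mice lacked the high mucosal score of its group, had the highest score of neuronal genes among the 4, at 7.92 against 7.36 to 7.54 in the others, and lay with the 11-month libraries on the first principal component of the 12 libraries. That component held 27.2% of the variance. On the second, with 25.2%, this library lay at 40.0, beside 20-month replicate 1 at 38.4. The 11-month libraries were at 2.7 to 20.1 there. Replicate 2 of the 20-month mice had the lowest brain score of the 8, at 3.05 against 4.1 to 4.51 in the others, and the lowest Schwann cell score, at 7.16 against 7.61 to 7.7. Its level of Mbp, a myelin gene of brain and nerve, was 1499 CPM against 2936 to 4076 CPM in the others. Replicate 2 of the 11-month mice held more blood than the rest, with 978 CPM of the haemoglobin gene Hba-a1 against 78.1 to 267 CPM.

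**Figure D1:**
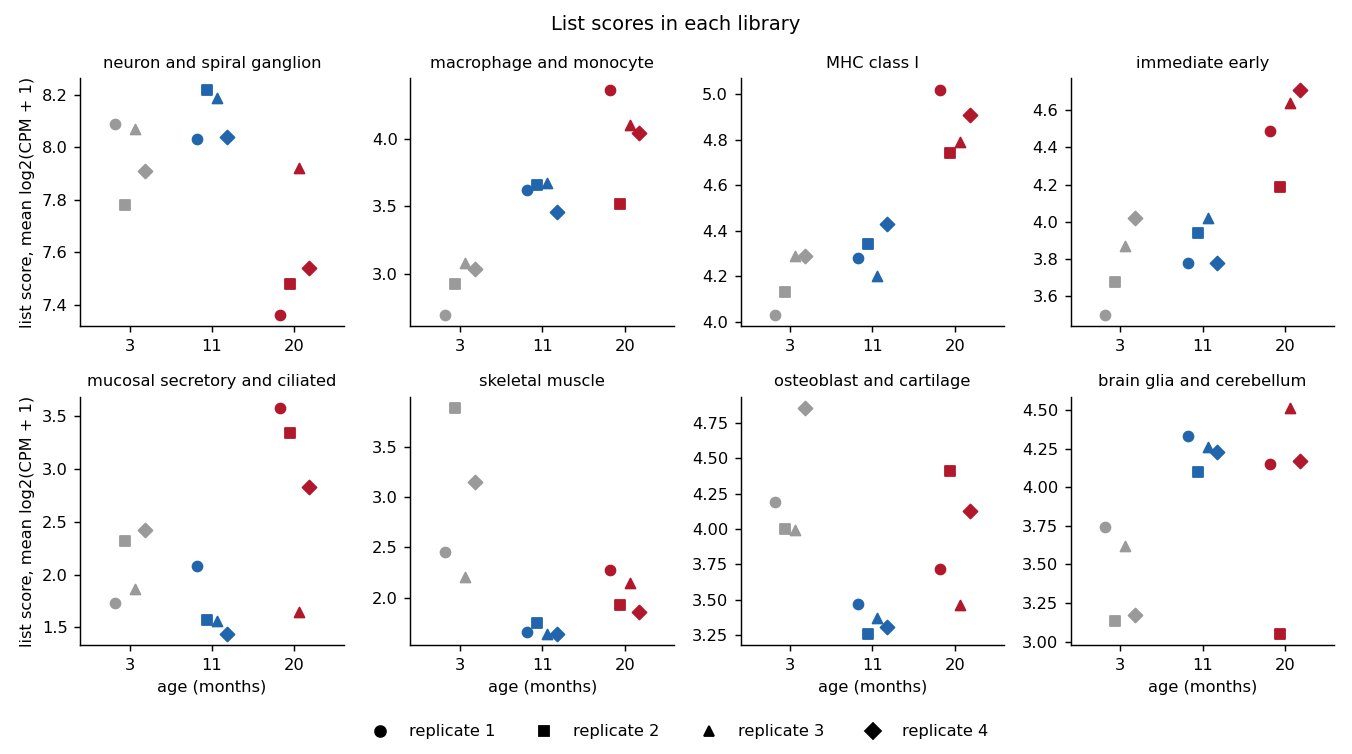
Score of 8 gene lists, as mean log2(CPM + 1) over the genes tested, in each library at 3, 11 and 20 months, with the marker shape giving the replicate number within an age. The neuron score is below every 11-month library in all 4 libraries of 20 months, the MHC class I and immediate early scores are above them in all 4, and the mucosal score of replicate 3 at 20 months, 1.65, lies among those at 11 months, 1.44 to 2.08.

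At 20 months 1222 genes were higher than at 11 months, 7.87% of those tested, and 1226 were lower, 7.9%. Most changes were small. The median rise was 1.37-fold and the median fall 1.31-fold, 67.2% of the rises and 87.7% of the falls were below 1.5-fold, and 138 genes rose and 12 fell at least 2-fold. The median over all genes was 0.03 on the log2 scale. These counts changed by over 1.5 times when some libraries were left out. Without 11-month replicate 2, 3 or 4 the rises numbered 490, 334 and 759, and without 20-month replicate 1, 2 or 4 they numbered 509, 778 and 579. The falls numbered 754 and 453 without 11-month replicate 2 or 3, and 454, 751 and 565 without 20-month replicate 1, 2 or 4. Without 20-month replicate 3 there were 1818 rises and 1814 falls. With the mucosal score as a covariate no gene passed in either direction by edgeR, and 1620 had an unadjusted p under 0.05. With the muscle and bone score as a covariate 0 rose and 1 fell. These scores move with age in these libraries, so that what they share with age cannot be told apart from age, and their part in the results was not tested further.

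**Figure D2:**
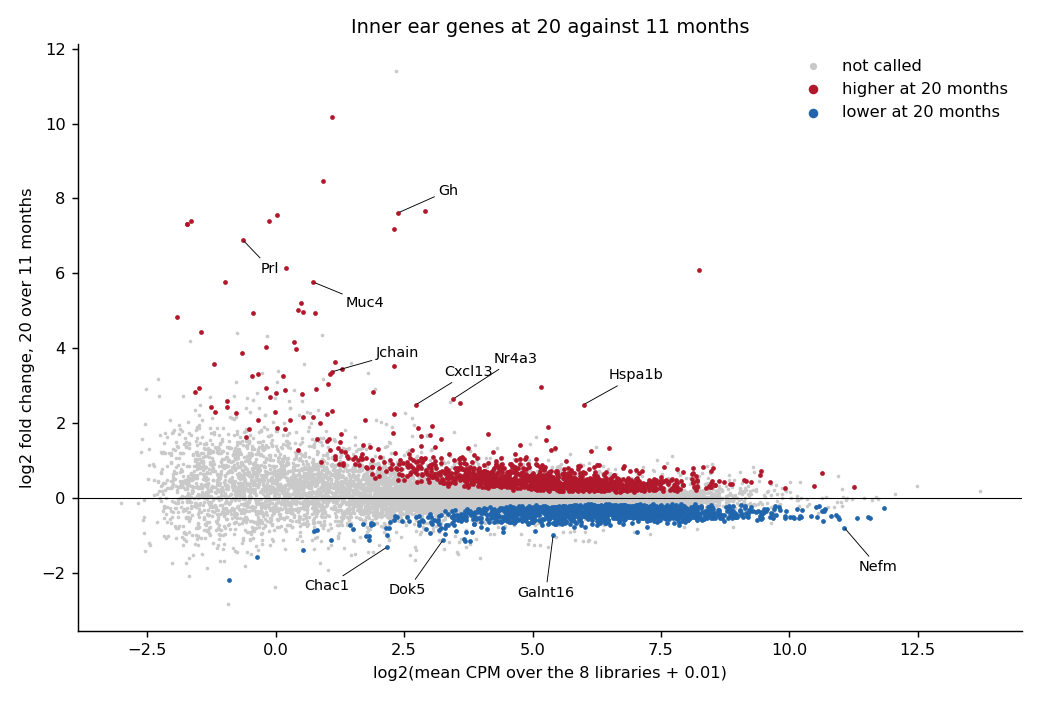
Log2 fold change at 20 over 11 months of each gene tested against its mean level over the 8 libraries, both on log2 scales, with the 1222 genes called higher in red and the 1226 called lower in blue. The largest rises are mostly of genes at low levels, such as Prl and Muc4, and the falls are mostly smaller than 2-fold.

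The gene lists set out what kinds of genes these were. In each, the share of members called is read against the 7.87% and 7.9% of all genes, and the lists share some members. The highest shares of rises were in MHC class I genes, with 7 of 12, MHC class II genes, with 5 of 9, and immediate early genes, with 15 of 30. The highest shares of falls were in genes of neurons, with 21 of 30, of potassium and sodium channels and pumps, with 10 of 28, and of oxidative phosphorylation, with 13 of 46. No member of the melanocyte, neutrophil or erythroid lists passed.

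**Figure D3:**
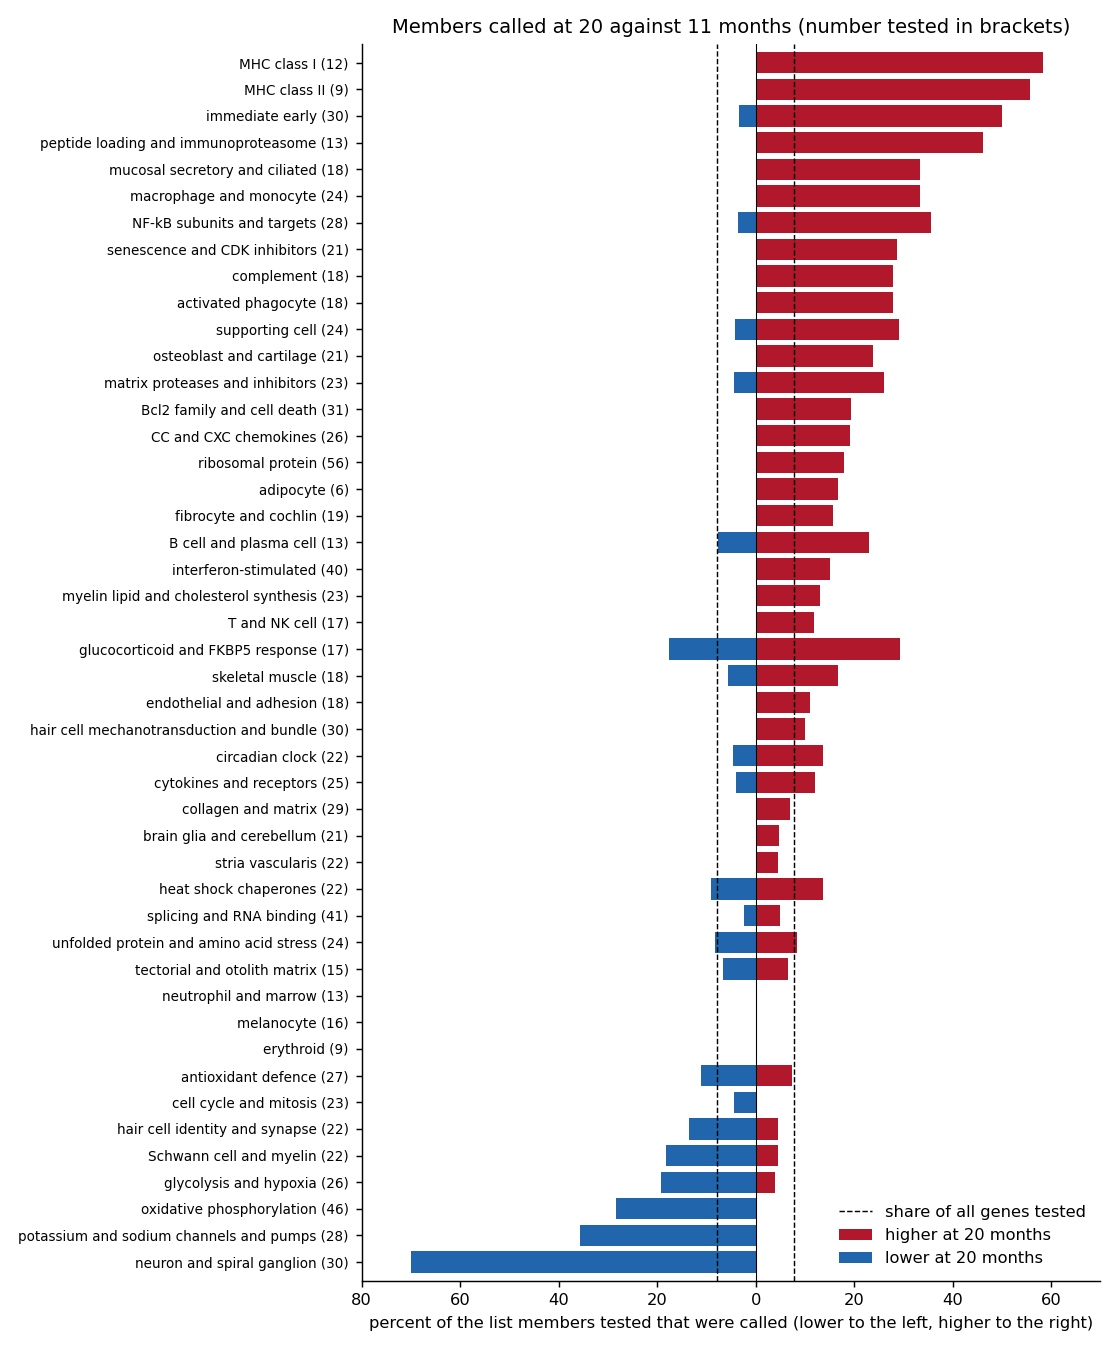
Percent of the members tested of each of the 46 gene lists that were called higher (red, to the right) or lower (blue, to the left) at 20 than at 11 months, with the number tested in brackets and the shares of all genes tested, 7.87% and 7.9%, as dashed lines. Antigen presentation and immediate early genes have the longest red bars, and the neuron list, with 70% of its members lower, has the longest blue one.

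Most genes of neurons fell. Of 30 tested, 21 fell and 0 rose, 29 had a log2 fold change below 0, and the median was -0.50 against 0.03 for all genes. In whole tissue, fewer neurons, less RNA per neuron and a changed share of other tissues cannot be told apart. Nefm, the medium neurofilament chain at chr14:68119545-68125004, had 1298, 1444, 2093 and 1445 CPM at 20 months, against 2517, 2705, 2999 and 2653 CPM at 11 months. Every 20-month library was below every 11-month library, with replicate 3 nearest to them (log2 fold change -0.79 ± 0.15, adjusted p = 0.00946). Its reads may include some of Nefl, the light chain that overlaps it on the opposite strand, which fell too (-0.62, adjusted p = 0.0123). Calb2, the calcium buffer calretinin of some ganglion neurons and hair cells, at chr8:110142526-110168212, had 1399, 1516, 1555 and 1507 CPM at 20 months, against 2042, 2011, 2202 and 2075 CPM at 11 months. Here the 4 libraries of 20 months lay close together and did not overlap those of 11 months (log2 fold change -0.48 ± 0.08, adjusted p = 0.00777).

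Slc17a7, the vesicular glutamate transporter that spiral ganglion neurons use, had 406, 466, 469 and 491 CPM at 20 months, against 588, 611, 647 and 621 CPM at 11 months, with no overlap (log2 fold change -0.43 ± 0.08, adjusted p = 0.0104). Slc17a6, the second such transporter, had 64.7, 73.9, 152 and 73.1 CPM at 20 months, against 156, 186, 188 and 152 CPM at 11 months (log2 fold change -0.91 ± 0.24, adjusted p = 0.0283 and up to 0.0802 with 1 library left out). Its replicates 1, 2 and 4 were far below the 11-month libraries and replicate 3 was at the level of the lowest of them. Pou4f1, a transcription factor of sensory neurons, showed the same uneven pattern, with 18.1, 18, 36.9 and 19.3 CPM at 20 months, against 39.2, 49, 44.2 and 39.7 CPM at 11 months (log2 fold change -0.90 ± 0.21, adjusted p = 0.0191 and up to 0.0619 with 1 library left out). Slc17a6 and Pou4f1 are named beyond the rule for named genes, after their values were seen. Without replicate 3 the log2 fold changes of Slc17a6 and Pou4f1 were -1.27 and -1.22, and 25 of the 30 neuronal genes fell. Replicate 3 was the library nearest to 11 months for both genes. Leaving it out therefore had to enlarge their falls, and these values add no support. The number of falls in the list was at least 14 whichever library was left out. Snap25, of the synaptic fusion machinery, averaged 1612 ± 319 CPM at 20 months and 2401 ± 165 CPM at 11 months (log2 fold change -0.58 ± 0.13, adjusted p = 0.0136). Tubb3, a neuronal tubulin, averaged 330.3 ± 71.6 CPM at 20 months and 465 ± 17.4 CPM at 11 months (log2 fold change -0.49 ± 0.13, adjusted p = 0.0259 and up to 0.0784 with 1 library left out).

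In the step before, between 3 and 11 months 1 of these 30 genes rose, 0 fell and the median log2 change was 0.05. The 2 steps share the 11-month libraries, and the test of their difference is given below. Of 21 genes of brain glia and cerebellum 1 rose, 0 fell and the median was -0.11. The brain score was 4.15, 3.05, 4.51 and 4.17 at 20 months, against 4.33, 4.1, 4.26 and 4.23 at 11 months, so 3 of the 4 libraries of 20 months were at the 11-month level. With the brain score as a covariate 19 of the 30 neuronal genes fell, and with the mucosal score none did.

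**Figure D4:**
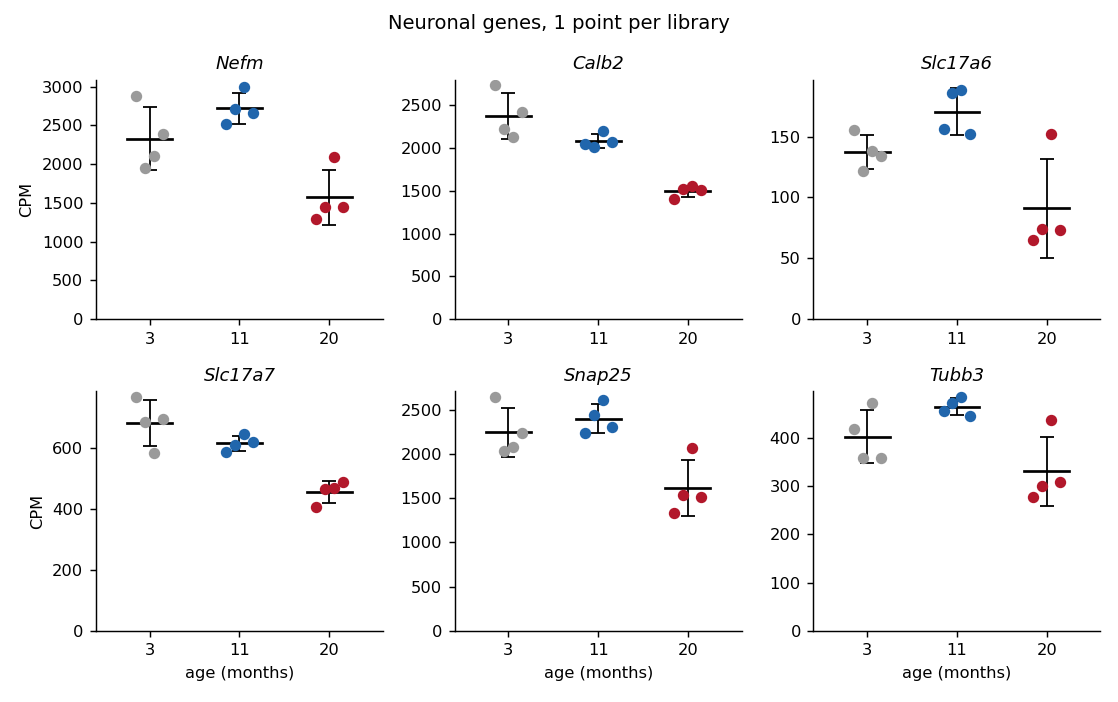
CPM of 6 neuronal genes in each library at 3, 11 and 20 months, with the mean as a bar and the SD over 4 libraries as whiskers. For 5 of the 6 genes all 4 libraries of 20 months lie below those of 11 months. Replicate 3 of Slc17a6, at 152 CPM, is at the level of the lowest 11-month library. Genes were named for small p-values, as markers or, like Slc17a6, after their values were seen. The count of separated genes therefore says nothing of neuronal genes as a set.

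Channels and pumps that shape nerve signals fell with the neuronal genes, 10 of 28 with 0 rises and a median of -0.42. Kcnk1, a leak potassium channel, had 213, 244, 213 and 226 CPM at 20 months, against 286, 272, 286 and 267 CPM at 11 months, with no overlap (log2 fold change -0.31 ± 0.06, adjusted p = 0.00946). Hcn2, a pacemaker channel, averaged 209 ± 47.4 CPM at 20 months and 315 ± 22.7 CPM at 11 months (log2 fold change -0.59 ± 0.13, adjusted p = 0.0128). The count was 4 without 11-month replicate 3 and 14 without 20-month replicate 3.

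Some nuclear genes of the respiratory chain fell, by less. Of 46 tested, 13 fell, 0 rose and the median was -0.14. Uqcrc1, a core protein of complex III, had 215, 232, 248 and 222 CPM at 20 months, against 274, 276, 285 and 293 CPM at 11 months (log2 fold change -0.30 ± 0.06, adjusted p = 0.00975). Ndufs1, the largest subunit of complex I, had 175, 190.5, 203 and 178 CPM at 20 months, against 229.9, 226, 240.1 and 233 CPM at 11 months (log2 fold change -0.32 ± 0.07, adjusted p = 0.0165 and up to 0.0536 with 1 library left out). In both, replicate 3 was the highest of the 20-month libraries. Between 3 (without 20-month replicate 4) and 20 (without 20-month replicate 3) of the 46 fell when 1 library was left out. The deposited table holds no mitochondrially encoded gene, so the chain's other subunits were not measured. Of the glycolysis and hypoxia list 5 of 26 fell and 1 rose. Slc2a3, the glucose transporter of neurons, averaged 61.9 ± 6.67 CPM at 20 months and 83.9 ± 6.56 CPM at 11 months (log2 fold change -0.44 ± 0.09, adjusted p = 0.0114), and Pfkm, a phosphofructokinase, averaged 345 ± 34.7 CPM at 20 months and 446 ± 4.11 CPM at 11 months (log2 fold change -0.37 ± 0.07, adjusted p = 0.0104). The gene that rose, P4ha1, makes hydroxyproline for collagen and averaged 89.7 ± 13.7 CPM at 20 months and 60.4 ± 2.04 CPM at 11 months (log2 fold change 0.57 ± 0.09, adjusted p = 0.00671). The falls numbered 3 without 20-month replicate 4 and 9 without 20-month replicate 3.

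Of 22 Schwann cell genes tested, 4 fell and 1 rose, 5 had a log2 fold change above 0, and the median was -0.13. The falls numbered 2 without 11-month replicate 3 or 20-month replicate 1. The structural myelin genes Pmp22 and Prx were not called, with adjusted p-values of 0.59 and 0.455. Egr2, the transcription factor that drives myelin genes in Schwann cells and is also an immediate early gene, was among the clearest falls of all. It lies at chr10:67534469-67542188 and had 48.3, 42.2, 46.1 and 50.3 CPM at 20 months, against 82.2, 80.8, 74.5 and 68.7 CPM at 11 months. The 20-month libraries span 42.2 to 50.3 CPM and the lowest 11-month library 68.7 CPM (log2 fold change -0.71 ± 0.08, adjusted p = 0.00303). Gjc3, the connexin of myelinating Schwann cells, had 92.7, 89.7, 96.9 and 102 CPM at 20 months, against 132, 131, 121 and 133 CPM at 11 months, again with no overlap (log2 fold change -0.44 ± 0.06, adjusted p = 0.00461). Nfasc, which anchors channels at the nodes along the axon and is made by neurons as well, averaged 399 ± 46.5 CPM at 20 months and 527 ± 45.2 CPM at 11 months (log2 fold change -0.40 ± 0.10, adjusted p = 0.0213 and up to 0.0641 with 1 library left out). Cnp, another myelin gene, was the fourth fall (-0.35, adjusted p = 0.0253, up to 0.0739 with 1 library left out). Sox10, a transcription factor of Schwann cells that is also on in the stria and in supporting cells, rose (248 ± 27.8 CPM at 20 months and 190.4 ± 13.6 CPM at 11 months; log2 fold change 0.38 ± 0.08, adjusted p = 0.0118).

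Heat shock proteins refold damaged proteins, and the genes of the inducible ones are switched on by the factor HSF1 through heat shock elements in their promoters. Of 22 chaperone genes 3 rose. Hspa1a, an inducible Hsp70 gene at chr17:34969359-34972156, had 52.9, 50.5, 47.1 and 98.4 CPM at 20 months, against 17.8, 16.8, 16.2 and 16.5 CPM at 11 months. The 11-month libraries were within 16.2 to 17.8 CPM, the 20-month libraries were all more than 2-fold above them, and replicate 4 was the highest (log2 fold change 1.89 ± 0.20, adjusted p = 0.00303). Hspa1b, its neighbour at chr17:34956429-34959238, had 90.4, 113, 62 and 168 CPM at 20 months, against 20.5, 18.6, 16.2 and 21.7 CPM at 11 months, in the same order at 20 months save for replicates 1 and 2 (log2 fold change 2.49 ± 0.26, adjusted p = 0.00303). Dnajb1, the co-chaperone that hands proteins to Hsp70, at chr8:83608175-83612653, had 88.2, 95.4, 80.7 and 109 CPM at 20 months, against 43.3, 51.4, 58.1 and 59.8 CPM at 11 months (log2 fold change 0.81 ± 0.11, adjusted p = 0.00342). All 3 calls held in each of the fits that left out 1 library.

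The promoters of the neighbouring Hsp70 genes are shown because they carry the same element at the same place, and because reads of such near copies can be assigned to either gene, so the split of the rise between Hspa1a and Hspa1b is uncertain. Each window runs from 250 bases before to 50 bases after the annotated start (RefSeq, GRCm38.p6, minus strand, chr17:34972107-34972406 for Hspa1a and chr17:34959189-34959488 for Hspa1b). Capitals mark the match to the heat shock element, searched as GAANNTTC, which begins 104 bases before the start in each.
Hspa1a: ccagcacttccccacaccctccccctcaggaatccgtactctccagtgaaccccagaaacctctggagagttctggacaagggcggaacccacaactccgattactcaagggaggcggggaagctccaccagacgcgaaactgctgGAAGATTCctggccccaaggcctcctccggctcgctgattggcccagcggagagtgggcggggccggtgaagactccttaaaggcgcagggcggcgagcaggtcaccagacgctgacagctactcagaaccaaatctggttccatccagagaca
Hspa1b: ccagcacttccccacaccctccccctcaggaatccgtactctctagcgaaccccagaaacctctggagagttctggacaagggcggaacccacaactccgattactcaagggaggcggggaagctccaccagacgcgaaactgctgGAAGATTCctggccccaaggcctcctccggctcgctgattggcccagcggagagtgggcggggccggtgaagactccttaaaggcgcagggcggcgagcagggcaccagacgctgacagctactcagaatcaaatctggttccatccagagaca
The windows are identical at 296 of 300 bases. The element was found in 11 of the 17 chaperone genes with a window, 64.7%, and in 9.04% of all 27025 genes with one. Of the 3 genes that rose, Hspa1a and Hspa1b hold it and Dnajb1 does not in these letters and this window. Fkbp4, a chaperone gene that fell, holds it too, and the other holders were not called.

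The median of the 22 was 0.07, and the 2 falls were of partners of Hsp90. Ahsa1, which speeds the Hsp90 cycle, averaged 125 ± 5.52 CPM at 20 months and 147 ± 5.05 CPM at 11 months (log2 fold change -0.24 ± 0.05, adjusted p = 0.0136). Fkbp4, an immunophilin that rides on Hsp90, was the other fall (-0.24, adjusted p = 0.0219, up to 0.0664 with 1 library left out). Between 3 and 11 months 4 of the 22 had risen and 0 had fallen.

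Immediate early genes are transcription factors and signal brakes that cells switch on within minutes of a stimulus, and they can also rise while a tissue is being taken out. Of 30 tested, 15 rose and 1 fell, with a median of 0.72. Nr4a3, an orphan nuclear receptor at chr4:48045078-48086447, had 20.1, 8.16, 28.5 and 19.1 CPM at 20 months, against 1.95, 3.15, 3.85 and 3.15 CPM at 11 months. Its lowest library at 20 months was more than 2-fold above its highest at 11 months (log2 fold change 2.65 ± 0.36, adjusted p = 0.00446). Fosl2, a partner of Jun in the AP-1 factor, had 38.2, 26.2, 47 and 45.4 CPM at 20 months, against 13.1, 15.6, 16.8 and 13.8 CPM at 11 months (log2 fold change 1.40 ± 0.18, adjusted p = 0.00382). Klf6, a zinc finger factor, had 98, 86, 87.9 and 92 CPM at 20 months, against 58, 61.3, 67 and 67 CPM at 11 months, with tight groups at both ages (log2 fold change 0.52 ± 0.07, adjusted p = 0.0032). In Nr4a3 and Fosl2, 20-month replicate 2 was the lowest of its group.

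The members that rose included Egr3, Dusp1 and Klf4, whose calls held whichever library was left out. Fosl1 (adjusted p = 0.0238, up to 0.0631 with 1 library left out), Nr4a1 (adjusted p = 0.0318, up to 0.0866 with 1 library left out) and Junb (adjusted p = 0.0339, up to 0.0955 with 1 library left out) rose as well, though their calls ended without some library. These 6 are named beyond the rule for named genes, after their values were seen. The best known member did not pass. Fos had 9.19, 10.6, 13.1 and 29.7 CPM at 20 months, against 5.82, 13.7, 8.12 and 4.46 CPM at 11 months, so that the ages overlap (log2 fold change 0.96 ± 0.59, adjusted p = 0.284). Jun also overlapped, with 114 ± 15.8 CPM at 20 months and 104 ± 7.21 CPM at 11 months (adjusted p = 0.297). Egr2, described above, was the member that fell. Between 3 and 11 months 1 of the 30 rose and 0 fell. The rises numbered 9 without 11-month replicate 4 or 20-month replicate 1, and 18 without 3-month replicate 1. How long each dissection took is not given in the sources used here, and its part in these values was not tested.

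**Figure D5:**
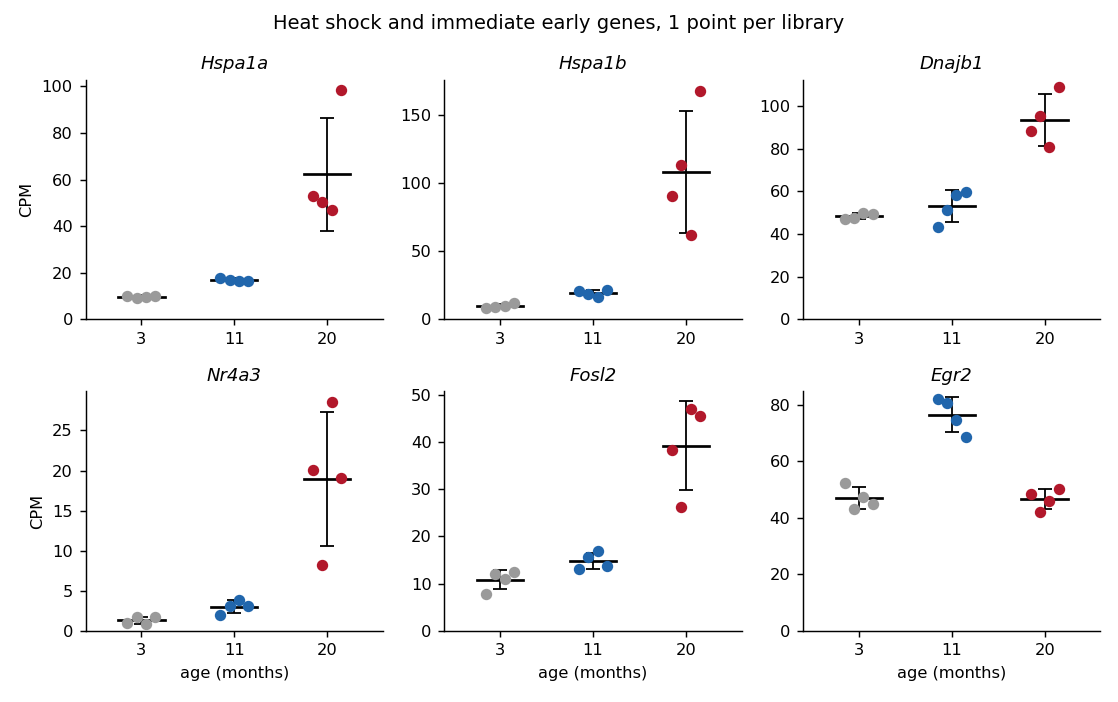
CPM of 3 heat shock genes and 3 immediate early genes in each library at 3, 11 and 20 months, with the mean as a bar and the SD over 4 libraries as whiskers. Hspa1a, Hspa1b, Dnajb1, Nr4a3 and Fosl2 are higher in all 4 libraries of 20 months than in any of 11 months, and Egr2 is lower, at 42.2 to 50.3 CPM against 68.7 to 82.2 CPM.

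Genes of antigen presentation rose. MHC class I molecules show peptides from inside every cell to CD8 T cells, and 7 of 12 genes tested rose with 0 falls and a median of 0.68. H2-K1, a classical class I heavy chain at chr17:33996012-34000619, had 355, 253, 254 and 279 CPM at 20 months, against 173, 159, 163 and 172 CPM at 11 months, with no overlap (log2 fold change 0.77 ± 0.12, adjusted p = 0.00669). H2-D1, the other classical chain of this strain, had 400.3, 286, 307 and 349.8 CPM at 20 months, against 220.0, 217, 202 and 217 CPM at 11 months (log2 fold change 0.65 ± 0.11, adjusted p = 0.00698). B2m, the light chain they share, had 543, 408, 393 and 423 CPM at 20 months, against 273, 269, 264 and 278 CPM at 11 months (log2 fold change 0.71 ± 0.14, adjusted p = 0.0104). Class I heavy chains are close copies of one another, so reads may be split among H2-K1, H2-D1, H2-Q4 and H2-Q7. None of these genes was called between 3 and 11 months, and none passed the test of the difference between the steps given below. With 1 library left out 6 to 9 were called between 11 and 20 months. The genes that cut and load the peptides rose too, 6 of 13 with 0 falls. Erap1, which trims peptides in the endoplasmic reticulum, averaged 36.3 ± 4.61 CPM at 20 months and 24.2 ± 1.79 CPM at 11 months (log2 fold change 0.58 ± 0.10, adjusted p = 0.00728). Tapbpl, a peptide editor, averaged 17.4 ± 1.57 CPM at 20 months and 12.4 ± 0.609 CPM at 11 months (log2 fold change 0.48 ± 0.10, adjusted p = 0.0106). Without 11-month replicate 3 this count was 2.

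MHC class II molecules, which macrophages, dendritic cells and B cells use to show peptides to CD4 T cells, rose in 5 of 9 genes with 0 falls. H2-Eb1, a class II chain, had 80.9, 41, 45.8 and 49.6 CPM at 20 months, against 31.8, 33, 34.3 and 34.2 CPM at 11 months, replicate 1 being far the highest (log2 fold change 0.71 ± 0.17, adjusted p = 0.0213 and up to 0.0622 with 1 library left out). H2-Ab1 averaged 55.3 ± 16.3 CPM at 20 months and 33.4 ± 2.21 CPM at 11 months (log2 fold change 0.73 ± 0.18, adjusted p = 0.0225 and up to 0.0744 with 1 library left out). H2-Aa averaged 61.2 ± 20.4 CPM at 20 months and 35.9 ± 3.09 CPM at 11 months (log2 fold change 0.77 ± 0.21, adjusted p = 0.0343 and up to 0.0957 with 1 library left out). No class II gene was called without 11-month replicate 2 or 3. Between 3 and 11 months 4 of the 9 had risen.

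Macrophage genes rose in part. Of 24 tested, 8 rose and 0 fell, with a median of 0.59. The early step, from 3 to 11 months, also had 8 rises and 0 falls among them, with a median of 0.77. Lyz2, the lysozyme of myeloid cells, had 299.6, 213, 210.5 and 237 CPM at 20 months, against 158, 151, 113 and 123 CPM at 11 months (log2 fold change 0.82 ± 0.18, adjusted p = 0.0151 and up to 0.0546 with 1 library left out). Tyrobp, an adaptor of phagocyte receptors, had 20.5, 13.6, 22.9 and 20 CPM at 20 months, against 13.6, 11.2, 10.7 and 10.5 CPM at 11 months (log2 fold change 0.75 ± 0.17, adjusted p = 0.0137 and up to 0.053 with 1 library left out). Cd68, a lysosomal protein of macrophages, averaged 15 ± 3.11 CPM at 20 months and 8.8 ± 0.998 CPM at 11 months (log2 fold change 0.77 ± 0.18, adjusted p = 0.0158 and up to 0.0519 with 1 library left out), and Adgre1, the F4/80 antigen, averaged 16.5 ± 3.69 CPM at 20 months and 9.68 ± 0.997 CPM at 11 months (log2 fold change 0.77 ± 0.18, adjusted p = 0.0168 and up to 0.0565 with 1 library left out). For Tyrobp 20-month replicate 2 was the lowest of its group, at the level of the highest 11-month library. Without that library 15 of the 24 rose, and without 11-month replicate 3 it was 1. Csf1r, the receptor that keeps macrophages alive, was not called, with 103, 53.8, 97 and 93.1 CPM at 20 months, against 67.8, 64, 71.4 and 60.5 CPM at 11 months (log2 fold change 0.40 ± 0.17, adjusted p = 0.129). Here 20-month replicate 2 was below all 11-month libraries.

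Of the genes that phagocytes raise when active, 5 of 18 rose and 0 fell, with a median of 0.43. From 3 to 11 months 7 of the 18 had risen and 0 had fallen, with a median of 0.54. Lgals3, the secreted lectin galectin-3, had 18, 17.4, 17.5 and 27.2 CPM at 20 months, against 8.13, 8.02, 7.81 and 12.1 CPM at 11 months, all 4 libraries of 20 months above all of 11 months (log2 fold change 1.15 ± 0.20, adjusted p = 0.00826). Cst7, a cystatin, had 2.79, 0.484, 3.73 and 3.46 CPM at 20 months, against 0.891, 0.757, 1.11 and 0.753 CPM at 11 months (log2 fold change 1.57 ± 0.49, adjusted p = 0.0469 and up to 0.116 with 1 library left out). Its replicate 2 at 20 months was below all 11-month libraries. Axl, a receptor for dying cells that other cells express too, averaged 78.8 ± 12.6 CPM at 20 months and 58.1 ± 4.42 CPM at 11 months (log2 fold change 0.44 ± 0.13, adjusted p = 0.04 and up to 0.117 with 1 library left out). The count was 1 without any 1 of the 11-month libraries or without 20-month replicate 1 or 4.

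Lymphocyte genes had low levels. Among T and NK cell genes 2 of 17 rose, and 0 did without 11-month replicate 1, 3 or 4 or 20-month replicate 1, 2 or 4. Their median log2 fold change was 0.91. In the early step 2 of the 17 rose as well, with a median of 1.92. Cd4 averaged 3.79 ± 0.869 CPM at 20 months and 1.84 ± 0.223 CPM at 11 months (log2 fold change 1.04 ± 0.30, adjusted p = 0.0346 and up to 0.0993 with 1 library left out) and Cd2, an adhesion receptor, 2.41 ± 0.232 CPM at 20 months and 1.23 ± 0.306 CPM at 11 months (log2 fold change 0.97 ± 0.27, adjusted p = 0.029 and up to 0.0923 with 1 library left out). Cd3e, which all T cells carry, had 1.45, 0.548, 0.703 and 1.25 CPM at 20 months, against 0.64, 0.666, 0.95 and 0.307 CPM at 11 months, and Cd8a had 2.76, 0.871, 2.11 and 1.84 CPM at 20 months, against 0.613, 0.757, 0.844 and 0.502 CPM at 11 months. Neither was called, with adjusted p-values of 0.431 and 0.0979. Among B and plasma cell genes 3 of 13 rose and 1 fell, and 1 rose without 11-month replicate 2, 3 or 4 or 20-month replicate 1 or 4. Jchain, which joins secreted antibody molecules and marks plasma cells, at chr5:88519809-88527897, had 2.7, 3.81, 0.917 and 8.13 CPM at 20 months, against 0.446, 0.393, 0.29 and 0.363 CPM at 11 months. At 20 months replicate 3 was the lowest and replicate 4 the highest (log2 fold change 3.37 ± 0.58, adjusted p = 0.00777). Jchain is among the largest rises described below, whose rule required that the libraries of the ages do not overlap. That its 20-month libraries all lay above those of 11 months therefore adds no support. Muc4 and Upk1b, epithelial genes described below, were likewise lowest in replicate 3 and highest in replicate 4 at 20 months, and their part in the Jchain values was not tested. Cd79a, of the B cell receptor, averaged 1 ± 0.881 CPM at 20 months and 1.13 ± 0.482 CPM at 11 months. Ms4a1, the B cell antigen CD20, averaged 0.305 ± 0.326 CPM at 20 months and 0.487 ± 0.413 CPM at 11 months. Neither was called, with adjusted p-values of 0.868 and 0.682 in that order. Sdc1, which epithelia express as well as plasma cells, rose (log2 fold change 1.04 ± 0.28, adjusted p = 0.0283 and up to 0.0832 with 1 library left out), and Derl3, of protein export in plasma and other secretory cells, fell (log2 fold change -1.02 ± 0.26, adjusted p = 0.0222 and up to 0.0609 with 1 library left out). No neutrophil gene passed, though all 13 tested had a log2 fold change above 0, with a median of 1.69, and DESeq2 called 4 higher. The score of this list was 3.62, 2.37, 1.52 and 1.28 at 20 months, against 1.76, 1.66, 0.9 and 1.38 at 11 months. Mpo, the neutrophil peroxidase, had 8.33, 1.52, 0.703 and 0.187 CPM at 20 months, against 0.446, 0, 0.237 and 0.195 CPM at 11 months (adjusted p = 0.0507), so that replicate 1 at 20 months held most of it.

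Of 26 chemokine genes 5 rose and 0 fell, and 1 rose without 11-month replicate 2, 3 or 4 or 20-month replicate 4. The median was 0.77, and in the early step 3 rose with a median of 0.82. Cxcl13, the chemokine that draws B cells, at chr5:95956939-95961068, had 14.2, 9.77, 11.6 and 9.38 CPM at 20 months, against 1.89, 2.12, 1.08 and 2.9 CPM at 11 months. The lowest 20-month library was more than 3-fold above the highest of 11 months (log2 fold change 2.49 ± 0.31, adjusted p = 0.0032). It averaged 0.316 ± 0.149 CPM at 3 months. Ccl11, which draws eosinophils, rose by less than 2-fold (log2 fold change 0.62 ± 0.16, adjusted p = 0.0248 and up to 0.0771 with 1 library left out). So did Cxcl16 (log2 fold change 0.48 ± 0.13, adjusted p = 0.0258 and up to 0.0716 with 1 library left out) and Cx3cl1, which tethers macrophages (log2 fold change 0.38 ± 0.10, adjusted p = 0.0283 and up to 0.09 with 1 library left out). Ccl21a, of lymphatic vessels, had 0.593, 3.87, 0.0306 and 4.52 CPM at 20 months, against 0, 0, 0 and 0.112 CPM at 11 months, most of it in replicates 2 and 4 (log2 fold change 6.15 ± 1.88, adjusted p = 0.0469 and up to 0.125 with 1 library left out).

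Of the subunits and targets of NF-kB, the factor through which TNF acts, 10 of 28 rose and 1 fell, and the count lay between 7 and 13 with 1 library left out. Nfkbia, the inhibitor that NF-kB induces against itself, had 93.8, 85.4, 70.1 and 77.2 CPM at 20 months, against 54.6, 55.2, 58.1 and 59.1 CPM at 11 months, with no overlap (log2 fold change 0.52 ± 0.08, adjusted p = 0.00573). Nfkb2, a subunit of the non-canonical arm, averaged 28.2 ± 2.78 CPM at 20 months and 17.6 ± 0.602 CPM at 11 months (log2 fold change 0.68 ± 0.12, adjusted p = 0.00791). Relb, its partner, averaged 17.7 ± 3.45 CPM at 20 months and 9.88 ± 1.52 CPM at 11 months (log2 fold change 0.84 ± 0.15, adjusted p = 0.00846). Sod2, a mitochondrial superoxide dismutase that NF-kB can induce, was the fall, with 148 ± 7.3 CPM at 20 months and 173 ± 5.68 CPM at 11 months (log2 fold change -0.22 ± 0.05, adjusted p = 0.018 and up to 0.0587 with 1 library left out). Both TNF receptors rose. Tnfrsf1a averaged 69.1 ± 5.7 CPM at 20 months and 50.4 ± 0.965 CPM at 11 months (log2 fold change 0.46 ± 0.12, adjusted p = 0.0259 and up to 0.0809 with 1 library left out) and Tnfrsf1b 16.9 ± 2.89 CPM at 20 months and 9.86 ± 1.88 CPM at 11 months (log2 fold change 0.77 ± 0.21, adjusted p = 0.0291 and up to 0.0866 with 1 library left out). Il1rn, the natural antagonist of interleukin 1, had 0.593, 1.03, 0.642 and 1.56 CPM at 20 months, against 0.0278, 0.272, 0.237 and 0.251 CPM at 11 months, with no overlap (log2 fold change 2.26 ± 0.71, adjusted p = 0.0472 and up to 0.13 with 1 library left out). Il16 fell (44.1 ± 6.12 CPM at 20 months and 60.2 ± 5.05 CPM at 11 months; log2 fold change -0.45 ± 0.10, adjusted p = 0.014). The complement genes Cfb, C1ra, C1s1 and C2 rose, with Cfd 5 of 18. The calls of 3 of them ended without some library, C1s1 (adjusted p = 0.0132, up to 0.0503 with 1 library left out), C2 (adjusted p = 0.0134, up to 0.054 with 1 library left out) and Cfd (adjusted p = 0.0415, up to 0.16 with 1 library left out). C1ra, a protease of the first component, had 18.8, 15.1, 14.2 and 16.5 CPM at 20 months, against 7.13, 8.32, 9.18 and 6.27 CPM at 11 months (log2 fold change 1.06 ± 0.19, adjusted p = 0.00826). Cfb, of the alternative pathway, had 8.66, 7, 8.98 and 9.28 CPM at 20 months, against 4.82, 4.09, 3.56 and 4.21 CPM at 11 months (log2 fold change 1.02 ± 0.18, adjusted p = 0.00826). C3 was not called, with 40.1, 19.4, 90.8 and 85.6 CPM at 20 months, against 31.7, 30.2, 37.8 and 36.7 CPM at 11 months (adjusted p = 0.209), and the count of rises was 11 without 20-month replicate 2 and 2 without 11-month replicate 3. The complement list had a median of 0.52. In the early step 4 of its 18 genes rose, with a median of 0.66.

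Of the interferon-stimulated genes 6 rose. All 40 tested had a log2 fold change above 0, with a median of 0.54, and 3 were called without 11-month replicate 2 or 3. The early step had a median of 0.79 for this list, with 1 rise. Trim30a had 20.4, 18.3, 21.9 and 13.7 CPM at 20 months, against 6.82, 9.87, 9.05 and 12.2 CPM at 11 months (log2 fold change 0.97 ± 0.20, adjusted p = 0.0114). Ddx58, the RNA sensor RIG-I, averaged 54.5 ± 8.02 CPM at 20 months and 34.5 ± 5.99 CPM at 11 months (log2 fold change 0.66 ± 0.14, adjusted p = 0.0123). Irf9, a subunit of the factor that binds interferon-stimulated elements, averaged 50.2 ± 4.95 CPM at 20 months and 34 ± 5.49 CPM at 11 months (log2 fold change 0.56 ± 0.12, adjusted p = 0.0125). Bst2, which tethers viruses to cells, had 50.9, 47.7, 48.7 and 45.1 CPM at 20 months, against 21.4, 26.3, 28 and 33.5 CPM at 11 months (log2 fold change 0.82 ± 0.21, adjusted p = 0.0259 and up to 0.0726 with 1 library left out). The score of the list varied widely among mice, 4.81, 4.23, 5.13 and 4.25 at 20 months, against 3.57, 4, 4.27 and 4.56 at 11 months.

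Promoters of Nfkbia and Bst2 are shown as examples of genes that rose and hold the element searched for their list. Nfkbia also holds the interferon-stimulated letters and Bst2 the heat shock letters, which are not marked. Whether any of these elements has a part in the rises was not tested. Windows and source are as above, on the minus strand at chr12:55492598-55492897 for Nfkbia and chr8:71537423-71537722 for Bst2. Capitals mark the kappa B element, searched as GGGANTTTC on both strands, in Nfkbia, beginning 113 and 28 bases before the start, and the interferon-stimulated element, searched as GAAANNGAA, in Bst2, as a pair that overlap and begin 130 and 124 bases before the start.
Nfkbia: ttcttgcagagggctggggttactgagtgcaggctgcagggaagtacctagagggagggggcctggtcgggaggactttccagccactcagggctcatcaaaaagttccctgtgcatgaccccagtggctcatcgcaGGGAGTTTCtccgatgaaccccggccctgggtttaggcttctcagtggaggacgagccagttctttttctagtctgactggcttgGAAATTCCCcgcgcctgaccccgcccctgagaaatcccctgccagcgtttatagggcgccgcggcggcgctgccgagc
Bst2: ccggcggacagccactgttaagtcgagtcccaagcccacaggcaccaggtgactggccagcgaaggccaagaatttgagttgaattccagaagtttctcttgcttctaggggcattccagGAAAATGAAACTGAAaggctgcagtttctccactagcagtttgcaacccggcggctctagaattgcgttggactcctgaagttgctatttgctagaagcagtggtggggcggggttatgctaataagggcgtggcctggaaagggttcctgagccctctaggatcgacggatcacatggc
The kappa B letters were in 6 of the 25 NF-kB genes with a window, 24%, against 1.29% of all genes. Of the NF-kB genes that rose and have a window, 2 of 7 hold them. The interferon-stimulated letters were in 22 of 30 interferon-stimulated genes, 73.3%, against 9.76% of all. Of the interferon-stimulated genes that rose and have a window, 3 of 5 hold them.

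Hair cell genes were called at shares on either side of those of all genes, 7.87% higher and 7.9% lower. Of 30 genes of the bundle 3 rose, 10%, and 0 fell. Of 22 genes of hair cell identity and synapse 1 rose, 4.55%, and 3 fell, 13.6%. Tmc1, of the transduction channel, had 8.6, 5.39, 12.5 and 9.19 CPM at 20 months, against 12.8, 7.26, 12.5 and 10.1 CPM at 11 months, and Slc26a5, the motor protein prestin of outer hair cells, had 12.1, 6.48, 9.96 and 6.98 CPM at 20 months, against 7.6, 10.7, 10.5 and 13.1 CPM at 11 months. The ages overlap in both, with adjusted p-values of 0.576 and 0.665. Among the genes that rose, Eps8, which caps actin in stereocilia, averaged 19.8 ± 0.91 CPM at 20 months and 15.8 ± 0.794 CPM at 11 months (log2 fold change 0.33 ± 0.09, adjusted p = 0.0262 and up to 0.0805 with 1 library left out) and Myo6, a motor that many epithelia share, 230.3 ± 17.8 CPM at 20 months and 197 ± 15.1 CPM at 11 months (log2 fold change 0.22 ± 0.07, adjusted p = 0.0447 and up to 0.166 with 1 library left out). Eps8l2, also of other epithelia, was the third (0.50, adjusted p = 0.0474, up to 0.13 with 1 library left out). The falls were of genes that neurons express as well, Pvalb (log2 fold change -0.48 ± 0.12, adjusted p = 0.0182 and up to 0.0564 with 1 library left out), Rims2 (log2 fold change -0.54 ± 0.13, adjusted p = 0.02 and up to 0.0559 with 1 library left out) and Calm2 (log2 fold change -0.24 ± 0.07, adjusted p = 0.0359 and up to 0.0952 with 1 library left out). None of the 22 fell without 11-month replicate 3 or 20-month replicate 1. Lmo7, of the cuticular plate, rose (log2 fold change 0.71 ± 0.21, adjusted p = 0.0434 and up to 0.125 with 1 library left out). No bundle gene rose without 11-month replicate 2, 3 or 4 or 20-month replicate 1 or 4, and without 20-month replicate 3, 4 bundle genes rose and 4 fell.

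Supporting cell genes rose in 7 of 24 and fell in 1. Notch1, the receptor through which supporting cells keep their fate, had 113, 131, 97.1 and 121 CPM at 20 months, against 78.3, 74.2, 73.1 and 76.3 CPM at 11 months (log2 fold change 0.62 ± 0.09, adjusted p = 0.00444). Jag1, its ligand, had 55.4, 45.1, 39.8 and 46.9 CPM at 20 months, against 31.1, 31.2, 33.4 and 28.8 CPM at 11 months (log2 fold change 0.59 ± 0.11, adjusted p = 0.009). In both, all libraries of 20 months were above all of 11 months. The connexins Gjb2 and Gjb6, which pass potassium between supporting cells and between fibrocytes, rose. Gjb2 averaged 873 ± 159.9 CPM at 20 months and 526 ± 124 CPM at 11 months (log2 fold change 0.73 ± 0.18, adjusted p = 0.0226 and up to 0.0743 with 1 library left out), and Gjb6 averaged 646 ± 99.4 CPM at 20 months and 463 ± 58.3 CPM at 11 months (log2 fold change 0.48 ± 0.14, adjusted p = 0.0405 and up to 0.126 with 1 library left out). Prox1, a nuclear factor of supporting cells that lymphatic vessels and neurons use too, fell (log2 fold change -0.46 ± 0.12, adjusted p = 0.0236 and up to 0.0728 with 1 library left out). The count of rises was 3 without 11-month replicate 3 or 20-month replicate 1 or 2, and 11 without 20-month replicate 3.

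In the lateral wall and the matrix the changes were fewer. Of the stria vascularis genes 21 of 22 had a log2 fold change above 0 and 1 rose, Cldn11, which seals the basal cells (321 ± 57.1 CPM at 20 months and 227 ± 47 CPM at 11 months; log2 fold change 0.50 ± 0.16, adjusted p = 0.0467 and up to 0.129 with 1 library left out). Kcnq1, the potassium channel of the marginal cells, had 69.6, 105, 27.4 and 43.2 CPM at 20 months, against 40.9, 19.3, 16.7 and 53 CPM at 11 months (adjusted p = 0.192), a wide spread at both ages. Of the fibrocyte list Pou3f4, whose loss causes deafness, rose (83.4 ± 11.1 CPM at 20 months and 61.4 ± 5.29 CPM at 11 months; log2 fold change 0.44 ± 0.11, adjusted p = 0.0238 and up to 0.0843 with 1 library left out) with Gjb2 and Gjb6. Of the tectorial and otolith list Col11a2 rose (832 ± 177 CPM at 20 months and 549 ± 74 CPM at 11 months; log2 fold change 0.60 ± 0.16, adjusted p = 0.0246 and up to 0.0814 with 1 library left out) and Sparcl1 fell (3326 ± 196 CPM at 20 months and 4046 ± 187 CPM at 11 months; log2 fold change -0.28 ± 0.09, adjusted p = 0.0484 and up to 0.126 with 1 library left out).

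Ccnd1, cyclin D1, which drives cells into the cycle and also accumulates in senescent cells, at chr7:144929931-144939831, had 42.8, 39.2, 30.9 and 41.6 CPM at 20 months, against 19, 17.9, 16.8 and 21.4 CPM at 11 months. The 20-month libraries were all above 30 CPM and the 11-month ones all below 22 CPM (log2 fold change 1.04 ± 0.12, adjusted p = 0.00303). Cdkn1a, the inhibitor p21, averaged 137 ± 19.3 CPM at 20 months and 100.5 ± 5.13 CPM at 11 months (log2 fold change 0.45 ± 0.10, adjusted p = 0.0123), and its mean at 3 months, 138 ± 12.3 CPM, was close to that at 20 months. Tnfrsf10b, a death receptor that p53 induces, averaged 6.97 ± 1.51 CPM at 20 months and 3.06 ± 0.382 CPM at 11 months (log2 fold change 1.19 ± 0.19, adjusted p = 0.00669). Of the 21 genes of the senescence list 6 rose and 0 fell, and 3 rose without 11-month replicate 2 or 3 or 20-month replicate 4. Cdkn2a, the senescence gene p16, had 0.267, 0, 0.153 and 0.28 CPM at 20 months, against 0.0278, 0.0303, 0 and 0 CPM at 11 months, too few counts for a test. Of 23 cell cycle genes 0 rose and 1 fell, Cdk1 (1.24 ± 0.298 CPM at 20 months and 2.25 ± 0.419 CPM at 11 months; log2 fold change -0.86 ± 0.26, adjusted p = 0.0405 and up to 0.109 with 1 library left out).

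Of 31 genes of cell death 6 rose and 0 fell, and 3 rose without 11-month replicate 1, 3 or 4 or 20-month replicate 4. Mcl1, which protects cells, had 194, 181, 172 and 176 CPM at 20 months, against 123, 125, 137 and 143 CPM at 11 months, with no overlap (log2 fold change 0.45 ± 0.06, adjusted p = 0.00446). Ripk1, a kinase that licenses cell death, averaged 29.8 ± 3.7 CPM at 20 months and 22.5 ± 1.06 CPM at 11 months (log2 fold change 0.40 ± 0.09, adjusted p = 0.0138). Casp1, of the inflammasome, averaged 3.04 ± 0.803 CPM at 20 months and 1.4 ± 0.312 CPM at 11 months (log2 fold change 1.12 ± 0.31, adjusted p = 0.0285 and up to 0.0956 with 1 library left out). Of 24 genes of the unfolded protein and amino acid stress list 2 rose and 2 fell, 8.33% each, with a median of 0.01, and 0 rose without 11-month replicate 2 or 3 or 20-month replicate 4. Chac1, which degrades glutathione, had 1.93, 2.45, 4.03 and 1.87 CPM at 20 months, against 9.02, 5.57, 5.88 and 5.1 CPM at 11 months (log2 fold change -1.31 ± 0.27, adjusted p = 0.0115), and Asns, asparagine synthetase, had 77.4, 90.3, 101 and 76.9 CPM at 20 months, against 119, 115, 119.7 and 126 CPM at 11 months (log2 fold change -0.47 ± 0.09, adjusted p = 0.009). Both fell, while Ddit3, the factor CHOP that lies above Chac1 in that pathway, rose (35.2 ± 3.99 CPM at 20 months and 27.3 ± 1.01 CPM at 11 months; log2 fold change 0.37 ± 0.09, adjusted p = 0.0165 and up to 0.0547 with 1 library left out). Among antioxidant genes Nfe2l2, the factor NRF2, rose (90.1 ± 10.7 CPM at 20 months and 66.8 ± 4.83 CPM at 11 months; log2 fold change 0.43 ± 0.09, adjusted p = 0.0134), and its targets Gclm and Srxn1 fell (-0.35 and -0.23, adjusted p = 0.0104, and 0.0421, up to 0.102 with 1 library left out).

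Per1, a clock gene that glucocorticoids induce, averaged 129.5 ± 15.4 CPM at 20 months and 98.1 ± 9.02 CPM at 11 months (log2 fold change 0.40 ± 0.09, adjusted p = 0.0123). Csnk1e, a kinase of the clock, fell (-0.21, adjusted p = 0.0195, up to 0.0556 with 1 library left out), Arntl rose (log2 fold change 0.34 ± 0.10, adjusted p = 0.0412 and up to 0.116 with 1 library left out), Hlf rose (log2 fold change 0.24 ± 0.07, adjusted p = 0.041 and up to 0.13 with 1 library left out), and the other 18 of 22 clock genes were not called. The rises numbered 1 without 11-month replicate 1, 2 or 3, 20-month replicate 2 or 4 or 3-month replicate 2. Of the 17 genes of the glucocorticoid list 5 rose, 29.4%, and 3 fell, 17.6%, with a median of 0.11. With 1 library left out 3 to 6 rose and 1 to 3 fell. Nr3c1, the receptor itself, rose (95.5 ± 9.15 CPM at 20 months and 74 ± 5.32 CPM at 11 months; log2 fold change 0.37 ± 0.08, adjusted p = 0.0122 and up to 0.0503 with 1 library left out), whereas Sult1a1, a sulfotransferase, fell (54.5 ± 11.1 CPM at 20 months and 88.3 ± 10.8 CPM at 11 months; log2 fold change -0.70 ± 0.12, adjusted p = 0.00846). The other rises were Per1, Cdkn1a, Errfi1 and Pdk4, and the other falls Fkbp5 and Mt2. The hour at which the mice were killed is not given in the sources used here. Ribosomal protein genes all had a log2 fold change above 0, with a median of 0.21, and 10 of 56 rose. Rpl38 averaged 145 ± 12.6 CPM at 20 months and 117 ± 10.2 CPM at 11 months (log2 fold change 0.30 ± 0.08, adjusted p = 0.031 and up to 0.105 with 1 library left out). This count was 0 without 11-month replicate 2, 3 or 4 or 20-month replicate 1, 2 or 4, and 27 without 20-month replicate 3. Of the lipid list Scd1, which desaturates fatty acids, rose (907 ± 83.3 CPM at 20 months and 678 ± 91.4 CPM at 11 months; log2 fold change 0.42 ± 0.10, adjusted p = 0.0157 and up to 0.0631 with 1 library left out), as did the factors above it, Srebf1 (log2 fold change 0.39 ± 0.10, adjusted p = 0.0221 and up to 0.0826 with 1 library left out) and Srebf2 (log2 fold change 0.23 ± 0.07, adjusted p = 0.0468 and up to 0.157 with 1 library left out). None of these 3 was called without 11-month replicate 2 or 3. Of matrix proteases 6 of 23 rose and 1 fell, and 3 rose without 11-month replicate 3 or 20-month replicate 4. Mmp13, a collagenase of cartilage and bone, had 3.56, 13, 4.19 and 5.33 CPM at 20 months, against 1.48, 0.333, 1.13 and 0.697 CPM at 11 months (log2 fold change 2.83 ± 0.51, adjusted p = 0.00892). Adamts5, which cuts aggrecan, fell, with 65, 60.4, 66.1 and 55.6 CPM at 20 months, against 90.9, 92.2, 82.4 and 81.6 CPM at 11 months (log2 fold change -0.49 ± 0.07, adjusted p = 0.00444). Of 29 collagen and matrix genes 2 rose, 6.9%, against 7.87% of all genes. They were Lum (log2 fold change 1.26 ± 0.30, adjusted p = 0.0224 and up to 0.0713 with 1 library left out) and Loxl1 (log2 fold change 0.60 ± 0.19, adjusted p = 0.0483 and up to 0.148 with 1 library left out), and neither was called without 11-month replicate 2 or 3 or 20-month replicate 1.

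The 10 largest rises were sought among called genes with a mean of at least 1 CPM in the higher age, no overlap of libraries and no clone-based name. Most of these 10 were of genes of other tissues. Some called genes whose libraries overlap, such as Muc16 and Sec14l3, rose more than most of them. Gh, the growth hormone gene of the pituitary, at chr11:106300261-106303703, had 25.2, 12.8, 2.93 and 0.623 CPM at 20 months, against 0.0278, 0.121, 0.0528 and 0 CPM at 11 months. Prl, prolactin of the same gland, had 2.97, 1.52, 0.489 and 0.0623 CPM at 20 months, against 0, 0, 0.0264 and 0 CPM at 11 months. Replicate 1 at 20 months had the highest level of both and replicate 4 the lowest. Prl had 1 count over the 4 libraries of 11 months, and the ratio of its depth-scaled counts was 182, with an exact 95% interval of 32.2 to 7220 that covers counting error only. Gh had 7 counts over the 4 libraries at 11 months against 1363 at 20 months (log2 fold change 7.62 ± 1.46, adjusted p = 0.0118), and the call of Prl ended without 1 library (adjusted p up to 0.054). Both were also present at 3 months, Gh with 2.89, 8.16, 1.3 and 1.2 CPM and Prl with 0.413, 2.08, 0.181 and 0.373 CPM, so the 11-month libraries were the lowest of the 3 ages.

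Genes of mucosal epithelium, which lines the middle ear next to the bone, rose in 6 of 18. Bpifa1, a secreted airway protein, had 930.0, 977, 3.03 and 477 CPM at 20 months, against 29.6, 0.847, 2.27 and 2.43 CPM at 11 months (log2 fold change 6.08 ± 1.68, adjusted p = 0.0384 and up to 0.102 with 1 library left out). Sec14l3, of ciliated airway cells, had 23.7, 31.9, 0 and 4.3 CPM at 20 months, against 0.111, 0.0303, 0.106 and 0.0279 CPM at 11 months (log2 fold change 7.67 ± 1.82, adjusted p = 0.0231 and up to 0.0685 with 1 library left out). Muc4, a membrane mucin, had 2.58, 4.42, 0.122 and 5.89 CPM at 20 months, against 0.111, 0.0605, 0.0264 and 0.0279 CPM at 11 months (log2 fold change 5.76 ± 1.23, adjusted p = 0.0132 and up to 0.0503 with 1 library left out), and Upk1b, a uroplakin, 5.37, 11, 1.83 and 17.9 CPM at 20 months, against 1.23, 0.515, 0.844 and 0.558 CPM at 11 months (log2 fold change 3.51 ± 0.86, adjusted p = 0.0238 and up to 0.0706 with 1 library left out). In each, replicate 3 at 20 months was near the 11-month libraries or among them. The factor Pax9, Alox12e, a lipoxygenase of skin, and Fam81b were also lowest in replicate 3 at 20 months, with log2 fold changes of 3.45, 3.32 and 3.88. Each of these 3 calls ended without some library, with adjusted p = 0.0198, up to 0.0575 with 1 library left out, for Pax9, 0.0157, up to 0.0566 with 1 library left out, for Alox12e, and 0.0356, up to 0.0934 with 1 library left out, for Fam81b. Muc16, another mucin, had 2.73, 8.26, 0 and 5.98 CPM at 20 months, against 0, 0, 0 and 0 CPM at 11 months, which is at least 198-fold higher, computed against 3 counts over the 11-month group (adjusted p = 0.0384, up to 0.0838 with 1 library left out). At 3 months Bpifa1 averaged 205 ± 157 CPM, above the 11-month mean. Without 11-month replicate 2 or 3 or 20-month replicate 1 no mucosal gene was called, and without 20-month replicate 3, 12 of 18 were.

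Of 18 muscle genes 3 rose and 1 fell, Pvalb. No muscle gene rose without 11-month replicate 2 or 3 or 20-month replicate 1, and 5 did without 3-month replicate 2. Of 21 bone and cartilage genes 5 rose and 0 fell, and 1 rose without 11-month replicate 2 or 3 or 20-month replicate 1, 2 or 4. Ckm, the creatine kinase of muscle, had 2.34, 1.39, 2.11 and 0.748 CPM at 20 months, against 0.306, 0.0605, 0.0264 and 0 CPM at 11 months (log2 fold change 4.02 ± 1.02, adjusted p = 0.0252 and up to 0.0793 with 1 library left out). Tnnt3, a troponin of fast muscle, had 2.55, 1.29, 1.62 and 0.654 CPM at 20 months, against 0.195, 0.182, 0.185 and 0.223 CPM at 11 months (log2 fold change 2.94 ± 0.71, adjusted p = 0.02 and up to 0.0637 with 1 library left out). Acta1, the actin of skeletal muscle, had 2.97, 3.16, 1.16 and 0.685 CPM at 20 months, against 0.167, 0.393, 0.132 and 0.139 CPM at 11 months (log2 fold change 3.26 ± 0.93, adjusted p = 0.0393 and up to 0.109 with 1 library left out), and its close copies in other muscles may share reads with it. At 3 months these 3 genes averaged 6.56 ± 6.75 CPM, 8.14 ± 7.79 CPM and 16.4 ± 16.8 CPM, above the 11-month means in each. Bglap, the bone matrix protein osteocalcin, had 1.96, 8.64, 0.183 and 3.58 CPM at 20 months, against 0.557, 0.515, 0.343 and 0.307 CPM at 11 months (log2 fold change 3.05 ± 0.91, adjusted p = 0.0468 and up to 0.122 with 1 library left out). H2-Q7, the last of the 10 largest rises by the rule above, had 1.27, 1.26, 1.04 and 2.12 CPM at 20 months, against 0.251, 0.182, 0.0528 and 0.0837 CPM at 11 months (log2 fold change 3.30 ± 0.67, adjusted p = 0.011).

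The 10 largest falls by the same rule were of genes at low or middle levels. Galnt16, which starts O-linked sugar chains, at chr12:80518471-80603898, had 31.1, 26.4, 29.9 and 25.5 CPM at 20 months, against 53.4, 53.3, 65.1 and 53.3 CPM at 11 months and the smallest p-value of all genes (log2 fold change -0.99 ± 0.09, adjusted p = 0.00038). Its mean at 20 months was 50.2% of that at 11 months, and transcripts on the opposite strand overlap it. Zfp941, a zinc finger gene, had 7.92, 10.1, 10.5 and 5.51 CPM at 20 months, against 20.1, 19.7, 19.2 and 16.6 CPM at 11 months (log2 fold change -1.15 ± 0.17, adjusted p = 0.00481). Dok5, a docking protein of neuronal receptor signalling, had 4.74, 4.39, 10.5 and 4.46 CPM at 20 months, against 12.1, 13.8, 14.7 and 11.9 CPM at 11 months (log2 fold change -1.12 ± 0.25, adjusted p = 0.0142), and replicate 3 at 20 months was again the nearest to 11 months. Nol4, of neuronal nuclei, had 1.9, 1.97, 2.17 and 2.74 CPM at 20 months, against 4.26, 5.15, 5.43 and 4.29 CPM at 11 months (log2 fold change -1.12 ± 0.21, adjusted p = 0.0087). Rem2, Asb15, Atp6ap1l and Rxfp3 made up the list with Chac1 and Derl3, at log2 fold changes of -1.58, -1.39, -1.13 and -1.02, and each of these 4 calls ended without some library (adjusted p up to 0.12, 0.06, 0.0813 and 0.101).

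Whether the late step differs from the early one was tested in the same fit, as 20 minus 11 months less 11 minus 3 months. The steps span 9 and 8 months. Of all genes 3 passed, all below 0 (0.0193% of those tested), 0 were above 0, and 3414 had an unadjusted p under 0.05. Egr2 had 52.3, 43.3, 47.5 and 44.8 CPM at 3 months, so it was highest at 11 months (contrast -1.42, adjusted p = 0.00143). Kcnk12, a potassium channel subunit, had 7.63, 8.07, 5.17 and 8.17 CPM at 3 months, 18.5, 23.8, 19.2 and 17.6 CPM at 11 months and 14.6, 14.5, 16.4 and 18 CPM at 20 months (contrast -1.76, adjusted p = 0.0375). It rose in the early step and was not called in the late one. Srd5a2, a steroid reductase, had 3 counts over the 4 libraries at 3 months, 3.2, 3.18, 3.85 and 2.98 CPM at 11 months and 3.17, 5.06, 6.69 and 6.36 CPM at 20 months (adjusted p = 0.003), a size of contrast that depends on the small count added in the fit. It had risen between 3 and 11 months. Without any 1 of the 11-month libraries or 20-month replicate 1, 2 or 4, 2 genes passed below 0. Without 20-month replicate 3, 653 genes were above 0 and 852 below, without 3-month replicate 1 these were 37 and 62, and DESeq2 called 512 and 470 with all 12 libraries.

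Neither gene named in the series title was called. Rbm25, a splicing factor at chr12:83632208-83683127, had 136, 142, 125 and 137 CPM at 20 months, against 121, 142, 123 and 131 CPM at 11 months (log2 fold change 0.06 ± 0.08, adjusted p = 0.627). The ages overlap. Tnf, at chr17:35199367-35202007, had 0.326, 0.226, 0.367 and 0.249 CPM at 20 months, against 0.0278, 0.151, 0.369 and 0.195 CPM at 11 months (log2 fold change 0.63 ± 0.81, adjusted p = 0.621), which is too few counts for a firm comparison. Of 41 splicing and RNA-binding genes 2 rose and 1 fell, and without 20-month replicate 3 or 3-month replicate 2 or 3, 4 rose. Rbm3, a protein that cells make in the cold, had 65.9, 66, 63.6 and 66.8 CPM at 20 months, against 51, 47.5, 39.7 and 41.9 CPM at 11 months, with no overlap (log2 fold change 0.54 ± 0.08, adjusted p = 0.00465), and an antisense transcript overlaps it. Tra2b, a splicing activator, rose (101 ± 9.23 CPM at 20 months and 83.2 ± 7.21 CPM at 11 months; log2 fold change 0.28 ± 0.08, adjusted p = 0.0284 and up to 0.0983 with 1 library left out) and Hnrnpc fell (196 ± 6.31 CPM at 20 months and 221 ± 12.2 CPM at 11 months; log2 fold change -0.17 ± 0.05, adjusted p = 0.0457 and up to 0.108 with 1 library left out).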

How the data were processed

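The authors deposited a table of raw read counts per gene and a table of FPKM values of the same 12 inner ear libraries, 1 library per mouse. Per the submitters' processing notes, Trimmomatic, HISAT2, HTSeq, DESeq2 and the build mm10 were used, with versions and settings not given in the sources used here. Per the labels' protocols the libraries were made with a TruSeq RNA kit v2, which does not keep the strand, so reads of overlapping genes on opposite strands cannot be told apart. Each deposited FPKM value is the count divided by the scaled column total and 1 length per gene.

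The counts were tested with edgeR 4.0.16 in R 4.3.3 by quasi-likelihood with TMM scaling, filterByExpr and 1 coefficient per age over 12 libraries, which left 15525 genes, with Benjamini-Hochberg adjustment and a threshold of 0.05. The standard error is the log2 fold change divided by the root of F. The fit was tested on simulated data. Library totals of 30599012 to 38451292 limit the precision of genes with few counts, and intervals of counts cover counting error only. The p-values measure the spread between the 4 mice of an age. Alternatives were DESeq2 1.42.0, other size factors, no filter, 8 libraries, a replicate block, limma 3.58.1 on log2(FPKM + 1) and log2(FPKM + 0.1), a minimum fold of 1.5, each library left out, and marker scores as covariates.

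Genes were named by rule: Rbm25 and Tnf, the 10 largest rises and 10 largest falls (called, a mean of at least 1 CPM in the higher age, no overlap of libraries, no clone-based name), the genes called in the contrast of the steps, up to 4 members with the smallest p of each of 46 lists, and markers of each cell type. Bst2, C3, Ccl21a, Cdkn2a, Cnp, Errfi1, Fkbp4, Fkbp5, Fos, Jun, Mbp, Mt2, Muc16, Pdk4, Prox1 and those said to be so in the text were named after their values were seen. The comparison, the lists and the markers were chosen with earlier results of these data known. Promoter windows come from RefSeq (GRCm38.p6), and 18321 of 18440 genes matched RefSeq. Organoid libraries were not used here, and results for some named genes are not reported here.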

Additional observations from a re-analysis of the deposited data

Results flagged for a closer look

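For 38 of 450 groups of 4 libraries looked at, 1 library lay far from the other 3, and chance gives about 1 in 20. A group here is 1 gene or 1 list score at 1 of the 2 ages. No cause was tested for any of them.

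At 20 months replicate 3 was the highest of its group for Slc17a6 (152 CPM, others 64.7 to 73.9), Pou4f1 (36.9 CPM, others 18 to 19.3), Dok5 (10.5 CPM, others 4.39 to 4.74) and Snrpn (4.58 CPM, others 2.58 to 2.84), genes that neurons express. Replicate 2 was the lowest for Mbp (1499 CPM, others 3717 to 4076), Nr3c1 (81.9 CPM), Tapbpl (15 CPM), the Schwann cell score (7.16) and the complement score (3.96), and the highest for Scd1 (1031 CPM). Replicate 4 was the highest for Hspa1a (98.4 CPM, others 47.1 to 52.9), Jun (137 CPM), Lgals3 (27.2 CPM) and Cfd (2.06 CPM). Replicate 1 was the highest for Mpo (8.33 CPM, others 0.187 to 1.52), Hlf (169.6 CPM), Loxl1 (26.4 CPM), Tnfrsf1a (77.6 CPM) and the endothelial score (5.52, others 4.72 to 4.83).

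At 11 months replicate 2 was the highest for Hba-a1 (978 CPM, others 78.1 to 107), Acta1 (0.393 CPM), H2-Aa (40.5 CPM) and the B cell score (2.31, others 1.84 to 1.91), and the lowest for Fkbp4 (459 CPM) and Nfkb2 (16.7 CPM). Replicate 1 was the highest for Bpifa1 (29.6 CPM, others 0.847 to 2.43), Srebf1 (242 CPM) and Cx3cl1 (62.5 CPM), and the lowest for Il1rn (0.0278 CPM). Replicate 3 was the highest for Galnt16 (65.1 CPM), Nr4a1 (38.8 CPM, others 19.3 to 20.8) and Prl (0.0264 CPM, others at 0), and the lowest for Gjc3 (121 CPM) and H2-D1 (202 CPM). Replicate 4 was the highest for Cd4 (2.18 CPM), Lgals3 (12.1 CPM), Ccl21a (0.112 CPM, others at 0) and Cfd (0.112 CPM, others at 0).

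The change between 11 and 20 months differed from that between 3 and 11 months for Egr2, Kcnk12 and Srd5a2, by edgeR's test of the difference itself. The contrasts were -1.42, -1.76 and -6.3 on the log2 scale.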

How the results depend on the processing

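With 1 library left out, genes higher at 20 months numbered 334 to 1818 and genes lower 453 to 1814. With a minimum fold of 1.5 these were 3 and 0, and with a score as covariate they were 0 and 0 (mucosal), 0 and 1 (muscle and bone) and 494 and 398 (Schwann cell). Genes above 0 in the contrast of the late with the early step numbered 0 to 653 with 1 library left out, and those below 0 numbered 2 to 852. By DESeq2 they were 512 and 470, and with the Schwann cell score 6 and 8. With limma on log2(FPKM + 1) 1 gene was below 0, and on log2(FPKM + 0.1) 1 was above and 1 below. Of the covariates, the mucosal score left 1 below and the muscle and bone score 0. The causes were not tested. The log2 fold change of gene Ccl21a turned to -0.68 (adjusted p = 0.87) with the muscle and bone score. The other settings, which were DESeq2, other size factors, no filter, the 8 libraries alone, FPKM values and the brain score, gave 838 to 1696 genes higher and 861 to 1740 lower. The correlations of equally numbered libraries between the ages were 0.0737, -0.0435, 0.228 and 0.0166. Unequally numbered libraries were not compared, so these values cannot decide whether the replicate numbers pair the mice. With the replicate block 877 genes were higher and 897 lower, and 0 and 2 passed in the contrast of the steps. Depth limits genes such as Tnf, Prl and Cdkn2a, with few counts per library.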

Other observations

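Some of the smallest p-values belonged to genes of no list, and they are named here after their values were seen. Elf1, an ETS factor of blood and endothelial cells, had 53.5, 49.8, 51.1 and 50.4 CPM at 20 months, against 29.5, 27.8, 33.9 and 32.6 CPM at 11 months, with narrow groups that do not overlap (log2 fold change 0.73 ± 0.09, adjusted p = 0.0032). Cebpb, a factor that inflammatory signals induce, had 28.6, 22.7, 29.2 and 32.1 CPM at 20 months, against 10.9, 12.7, 16.7 and 13.5 CPM at 11 months (log2 fold change 1.06 ± 0.15, adjusted p = 0.0043), again with no overlap. Arrdc4, an arrestin-like gene that glucose induces through its sensor factors, averaged 30.8 ± 4.64 CPM at 20 months and 16.5 ± 1.46 CPM at 11 months (log2 fold change 0.90 ± 0.11, adjusted p = 0.0032). Mknk2, a kinase of the translation factor eIF4E, averaged 149 ± 20.8 CPM at 20 months and 90.6 ± 5.64 CPM at 11 months (log2 fold change 0.71 ± 0.10, adjusted p = 0.00382), and Ptbp3, an RNA-binding protein, 66.8 ± 3.07 CPM at 20 months and 49.1 ± 2.52 CPM at 11 months (log2 fold change 0.44 ± 0.06, adjusted p = 0.00342). Antxr1, a receptor of matrix collagen, averaged 91 ± 4.27 CPM at 20 months and 64.1 ± 4.54 CPM at 11 months (log2 fold change 0.51 ± 0.07, adjusted p = 0.00382).

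Among the falls was Frat1, which frees beta-catenin from its kinase GSK3. It had 7.29, 7.51, 8.22 and 7.54 CPM at 20 months, against 13.1, 12.4, 12.8 and 12.4 CPM at 11 months, the libraries of each age lying within a narrow range (log2 fold change -0.73 ± 0.09, adjusted p = 0.0032). None of these 7 genes was called between 3 and 11 months or in the contrast of the steps. Usp29 and Snrpn, imprinted genes expressed from the paternal copy and mostly in neurons, fell by 0.94 and 0.82 on the log2 scale, with adjusted p-values of 0.0123 and 0.0337, up to 0.0967 with 1 library left out. For Peg3, another imprinted gene, the log2 fold change was -0.36 (adjusted p = 0.213). Exons of other genes overlap Elf1, Cebpb, Ptbp3, Antxr1, Usp29 and Snrpn, and reads could not be told apart by strand.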
